A study of Nicotiana tabacum with 20 samples.

Results

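Leaves of 2 hairpin lines of *Nicotiana tabacum* (tobacco), line 8 and line 1, were compared in the T1 generation over all measured transcripts. The 8 libraries were taken by their labels, 4 of line 8 (HP8_T1) and 4 of line 1 (HP1_T1), out of 20 in the series. Both lines carried the same kind of construct. It held a piece of the reverse transcriptase of the retrotransposon Tnt1 in sense and then antisense orientation around an intron, driven by the 35S promoter and closed by the OCS terminator, together with hygromycin resistance and the GUS reporter. Both are labelled as regenerants from transformation and were 45 days old. Besides them, the selfed progeny of line 1 (HP1_T2, with the construct of its parent), empty-vector regenerants (C, with promoter, intron, terminator and hygromycin resistance but neither the Tnt1 piece nor a listed GUS gene) and wild-type plants (WT), 4 libraries each and of the same age, are given for their levels. Plants were grown in vitro with 14 h of light at 24 °C, and the protocol, written for the transgenic plants, names an antibiotic in the medium and does not say whether WT had it.

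Tnt1 is a long terminal repeat retrotransposon that moves through an RNA copy, which its reverse transcriptase turns back into DNA. An inverted repeat under the 35S promoter, which is active in most plant tissues, gives a double-stranded RNA that plant Dicer-like enzymes cut into small RNAs, and these guide the silencing of matching sequences. Lines that arise from separate transformation events carry the transgene at different places in the genome, so more than 1 line is usually studied.

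The labels do not say whether the 4 libraries of a line came from separate plants, or what else differed between the lines beyond their number. What goes with the line and what goes with its particular plants cannot be told apart, and p-values rest on the variation among these libraries, part or all of which may be technical. The tables list 24069 UniGene sequences, here named features, with their reads. No names stand beside these identifiers in the tables, and 0 of them matched the 79372 genes of the reference table, so neither Tnt1, the transgene nor leaf marker genes could be looked up. Total gene reads ranged from 2094798 to 2688507 in HP8_T1 and from 1994983 to 2805529 in HP1_T1. In these 8 libraries 19353 features had a read and 4716 had none. Across the 7052 features tested, log2 levels of pairs of libraries correlated at 0.916 to 0.932 within HP8_T1, at 0.922 to 0.940 within HP1_T1 and at 0.771 to 0.803 between the lines, a description over features that are not independent replicates.

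The leaf transcripts of the lines differed in 2934 of 7052 features tested, 41.6% of them, of which 1505 (21.3%) were higher in HP8_T1 and 1429 (20.3%) were lower. A feature was called where the adjusted p (Benjamini-Hochberg) of the edgeR quasi-likelihood F test was below 0.05, after scaling by TMM, which equalises libraries on the bulk of their features. Among the features that were higher, the median log2 difference was 1.0 with quartiles of 0.73 and 1.39, and among those that were lower it was −1.04 with quartiles of −1.45 and −0.74. The median SE over all tested features was 0.29. A difference of at least 2-fold was found in 756 higher and 754 lower features (10.7% of those tested in either direction), of at least 4-fold in 125 and 135, and of at least 8-fold in 27 and 32. The smallest difference that passed was 0.17 upward and −0.16 downward on the log2 scale, at the features of rank 1 and rank 10 by reads, where counts are deepest. The libraries of the lines did not overlap in 1151 of the higher and 1111 of the lower features, and in 2502 (35.5%) of all tested features, 240 of which did not pass the test.

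**Figure D1:**
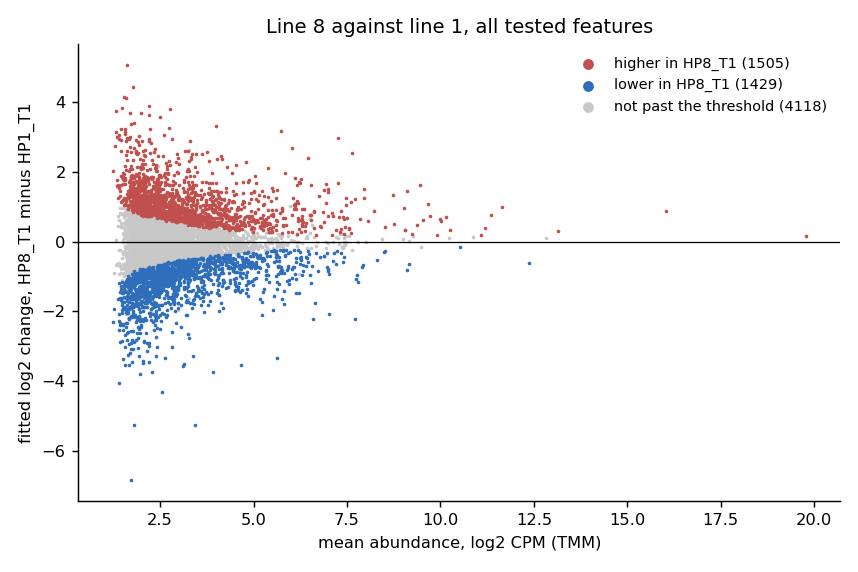
Each point is 1 of the 7052 tested features, with its mean abundance (log2 CPM, TMM-scaled) on the x axis and its fitted log2 change, HP8_T1 minus HP1_T1, on the y axis. The 1505 higher and 1429 lower features surround a median change of −0.0090, and smaller changes pass the test at higher abundance.

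The direction of the calls depended on the scale. With TMM, 51.3% of calls were higher in HP8_T1. When library totals set the scale, 980 features were higher and 1949 lower (33.5% higher), and when totals without the top feature set it, 872 were higher and 2438 lower (26.3%). The median log2 difference of all tested features was −0.0090 with TMM, −0.21 with library totals and −0.32 outside the most abundant feature. Of the features at least 2-fold apart under TMM, 667 of the 756 higher and 749 of the 754 lower ones kept their call under all 6 scalings tried. TMM gave the second highest of the 6 medians, which bears on how many calls of either direction could hold under the others. Features called in both directions under different scalings numbered 3.

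The make-up of the libraries differed between the lines, with the reads outside the top feature spread over more features in HP1_T1 than in HP8_T1. A single feature of 625 bases held most reads of every library. It took 78.1%, 77.1%, 73.8% and 75.6% of gene reads in the 4 HP8_T1 libraries and 79.6%, 78.9%, 75.5% and 77.4% in the 4 HP1_T1 libraries. These ranges overlap, and the means of 76.2% ± 1.87 and 77.9% ± 1.83 (SD, n = 4 each) gave a p of 0.257 in a two-sided exact permutation test (adjusted 0.386 over 6 measures). That test ignores replicate numbers. Between libraries of the same number, HP8_T1 minus HP1_T1 was −1.87 to −1.51 percentage points, and the labels do not say whether these numbers mark pairs. The call on this feature followed the scale: it was higher in HP8_T1 under TMM (log2 change 0.17, SE 0.050, edgeR adjusted p 0.0050), lower with totals outside it (−0.14, adjusted p 0.029) and not called with library totals (−0.032, adjusted p 0.55). The labels and tables do not say what kind of RNA it is.

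Of the reads outside that feature, a feature of 868 bases took 31.3%, 30.4%, 32.6% and 31.8% in HP8_T1, against 20.8%, 20.3%, 21.9% and 21.5% in HP1_T1. Every HP8_T1 library thus lay above every HP1_T1 library. The means were 31.5% ± 0.915 and 21.1% ± 0.713 (SD, n = 4 each), a difference of 10.4 percentage points. Its two-sided exact permutation p of 0.0286 is the smallest that 4 against 4 libraries can give, and after Benjamini-Hochberg adjustment over the 6 measures it was 0.0571, which misses 0.05. The share was 29% ± 0.920 in HP1_T2, 31.6% ± 1.21 in C and 38.3% ± 1.32 in WT, so HP1_T1 stood lowest of the 5 groups.

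The long tail of low features was larger in HP1_T1. Past rank 1000, features together took 23.6% ± 0.289 of the reads outside the top feature in HP8_T1 and 28.9% ± 0.0936 in HP1_T1 (SD, n = 4 each). At an equal depth of 406165 reads outside the top feature, 14574 ± 89.3 features were expected to have a read in HP8_T1 and 15478 ± 57.4 in HP1_T1, a difference of −904 features. Libraries of the lines did not overlap in either measure, with the same exact permutation p of 0.0286 and adjusted p of 0.0571 as above. The most abundant features that together held 50% of the reads outside the top feature numbered 15 to 18 in HP8_T1 libraries and 57 to 63 in HP1_T1 libraries. Their mean number was 16.5 in HP8_T1, 60.5 in HP1_T1, 13.25 in HP1_T2, 13.5 in C and 6.5 in WT. HP1_T1 thus stood apart from the other groups, and HP8_T1 did not have the fewest. With the depth fixed at 178455 reads outside the 100 most abundant features instead, the difference in features with a read was −441. The tail share, the number expected at 406165 reads and the number holding 50% all count reads of the second feature. Its larger share in HP8_T1 is thus part of these differences, and how large a part was not tested.

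**Figure D2:**
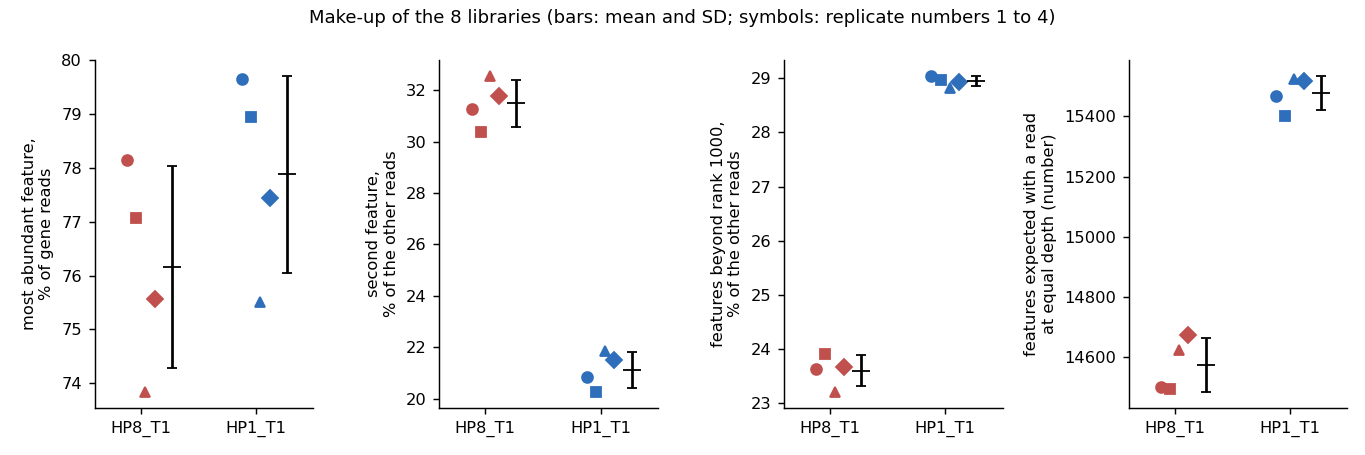
The 4 panels show, for HP8_T1 left of HP1_T1, the share of gene reads in the most abundant feature, the shares of the other reads in the second feature and in features beyond rank 1000 (all in %), and the number of features expected with a read at equal depth. Symbols are single libraries by replicate number and bars are mean and SD, and the lines overlap in the first panel and lie apart in the other 3.

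Among the 10 features with the most reads, 7 were higher and 2 lower in HP8_T1 under TMM, but 4 of these 9 calls did not hold under all 6 scalings. Those that did were the features at ranks 2, 6 and 8, which were higher, and at ranks 5 and 10, which were lower. Ranks here are by reads and not per length, and these features were described after their values were seen. The 868-base feature at rank 2 had a log2 change of 0.89 (SE 0.043, edgeR adjusted p 1.02e-30), and 0.58 to 0.91 over the scalings. Rank 6, of 887 bases, took 1.40% ± 0.0791 of the reads outside the top feature in HP8_T1 and 0.879% ± 0.0327 in HP1_T1, and rank 8, of 544 bases, took 1.04% ± 0.0390 and 0.759% ± 0.0323 (SD, n = 4 each).

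The feature at rank 5, of 543 bases, went the other way. It took 2.15%, 2.19%, 2.17% and 2.28% of the reads outside the top feature in HP8_T1, against 4.15%, 4.27%, 4.06% and 4.24% in HP1_T1. The lines are far apart and their libraries vary little, with a log2 change of −0.62 under TMM (SE 0.053, edgeR adjusted p 8.53e-17) and −0.93 when reads outside the top feature set the scale. Its share was 3.44% ± 0.112 in HP1_T2, 2.75% ± 0.109 in C and 1.31% ± 0.112 in WT (SD, n = 4 each), so HP1_T1 stood highest. Rank 4, of 855 bases, shows what the scale does. It was called higher under TMM with a log2 change of 0.30, yet its share was 3.58% ± 0.151 in HP8_T1 and 3.59% ± 0.169 in HP1_T1.

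Differences were called more often among abundant features. At ranks 11 to 100, 45 features were higher and 23 lower of 90 tested, past these up to rank 1000, 294 and 266 of 900, and beyond rank 1000, 1159 and 1138 of 6052. The shares called were 75.6%, 62.2% and 38%. The median reads per library were 624, 80.7 and 15 in these classes and the median SE 0.075, 0.14 and 0.31, so sparser features needed a larger difference to pass. At least 2-fold apart were 15 higher and 1 lower of the 90, 84 and 59 of the 900, and 657 and 694 of the 6052. On the scale of reads outside the top feature the 3 classes held 32 and 41, 177 and 435, and 660 and 1958 higher and lower features.

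**Figure D3:**
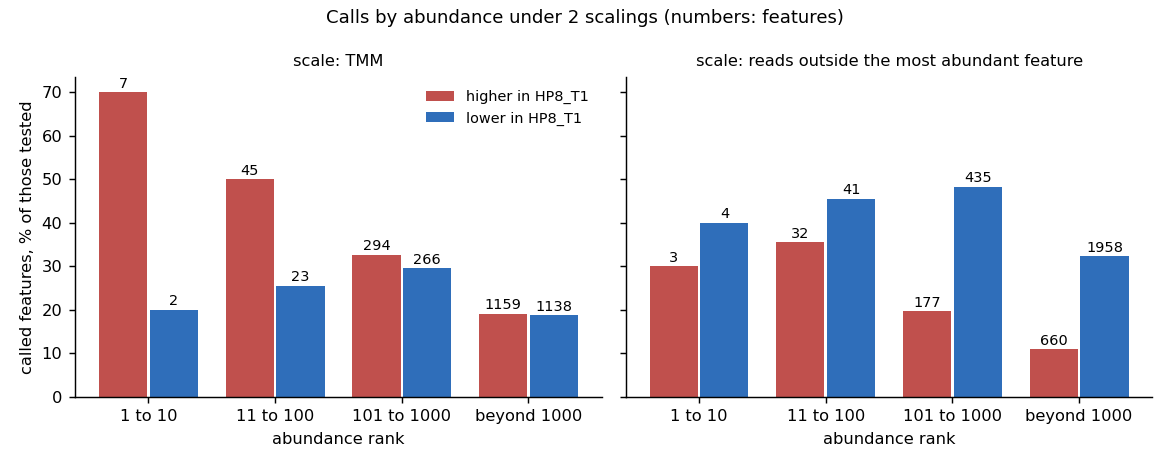
Bars give the percent of tested features in each abundance class that were higher (red) or lower (blue) in HP8_T1 than in HP1_T1, with the number of features above each bar, under TMM (left panel) and with reads outside the most abundant feature as the scale (right panel). At ranks 11 to 100 the counts are 45 higher and 23 lower in the left panel and 32 and 41 in the right.

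At ranks 11 to 100, 15 features were at least 2-fold higher in HP8_T1 and 1 at least 2-fold lower, and under the 6 scalings these counts ran from 11 to 15 and from 1 to 10. These features, too, were picked out after their values were seen. A feature of 1005 bases at rank 40 had the largest difference. Its normalised read count, in TMM-scaled CPM (counts per 1e6 reads) over the 20 libraries, was 396, 388, 425 and 437 in HP8_T1, against 50.2, 53.6, 53.9 and 55.5 in HP1_T1. The lowest HP8_T1 library stood far above the highest HP1_T1 library, with a log2 change of 2.95 (SE 0.081, edgeR adjusted p 2.75e-47). It had 46.5 ± 7.76 CPM in HP1_T2, 3.64 ± 1.70 in C and 1.53 ± 0.362 in WT (SD, n = 4 each), so C and WT were near 0 and HP1_T2 was near its parent.

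Several other abundant features that were higher in HP8_T1 were ordered the same way in these libraries. The feature of 2888 bases at rank 43 had 310 ± 8.79 CPM in HP8_T1, 97.7 ± 4.53 in HP1_T1, 88.2 ± 8.61 in HP1_T2, 51.8 ± 5.47 in C and 15.0 ± 1.25 in WT. That of 997 bases at rank 73 had group means of 211, 40.4, 33.9, 3.90 and 3.58 CPM in the same groups, and that of 900 bases at rank 78 had 181, 52.4, 13.8, 9.77 and 0.713 CPM. In each of these, HP8_T1 had the highest group mean and WT the lowest. At rank 73, however, the libraries of C (1.85 to 7.65 CPM) and WT (1.46 to 5.96 CPM) overlapped. Those of HP1_T1 and HP1_T2 overlapped at ranks 43 and 73.

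Others were highest in WT and lowest in HP1_T1, with HP8_T1 between them. The feature of 1202 bases at rank 39 had 352 ± 11.3 CPM in HP8_T1, 115.5 ± 5.67 in HP1_T1, 268 ± 11.8 in HP1_T2, 477 ± 41.2 in C and 1785 ± 44.1 in WT (SD, n = 4 each). Those at ranks 33 (1655 bases), 47 (860 bases) and 94 (1327 bases) had HP8_T1 means of 382, 270 and 134 CPM, HP1_T1 means of 181, 98.6 and 57.6 CPM and WT means of 1952, 1393 and 453 CPM. In these 4 features HP1_T2 was closer to HP8_T1 than to its own parent. The single feature at least 2-fold lower in HP8_T1 under TMM was one of 828 bases at rank 44, with 129.5 ± 10.7 CPM in HP8_T1 and 275 ± 6.76 in HP1_T1, against 223 ± 2.52 in HP1_T2, 350 ± 14.4 in C and 111 ± 7.57 in WT.

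Against their HP8_T1 and HP1_T1 means, the other groups took no common place in the 15 features that were higher. HP1_T2 lay above HP8_T1 in 2, between the lines in 7 and below HP1_T1 in 6. C lay above, between and below in 5, 2 and 8 features, and WT in 4, 4 and 7. Reads that could be placed on 1 feature made up 79.4% or more of all reads in 13 of the 15, but 23.7% for the feature of 1071 bases at rank 97 and 0.968% for that of 540 bases at rank 88, whose counts may be shared with near-identical sequences.

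Identifiers are given for 4 features, taken as the largest fitted changes where a call was made, the libraries of the lines did not overlap and the line with more reads averaged 20 or more. These conditions were met by 793 higher and 787 lower features, so passing them is no further support. Nta#S45513050 (761 bases) had 26, 17, 27 and 33 reads in HP8_T1, against 0, 2, 2 and 1 in HP1_T1. All 4 HP8_T1 libraries carried it and HP1_T1 had 5 reads in all, with a fitted log2 change of 4.44 (SE 0.48, edgeR adjusted p 1.42e-12). Pooled and scaled, its level was 24.1-fold higher in HP8_T1, with a 95% exact interval of 9.98 to 75.6 that covers counting error alone. HP1_T2 had 2 reads, C 0 and WT 2 over 4 libraries each, so a level near that of HP8_T1 was found in no other group. Per length, it stood at 14.4 RPKM in HP8_T1 and 0.625 RPKM in HP1_T1.

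Nta#S33577320 (845 bases) had the largest upward change among the 503 features that met these conditions and also averaged 20 or more reads in the line with fewer. Its normalised read count was 141, 156, 133 and 139 CPM in HP8_T1, against 15.5, 19.2, 14.9 and 14.4 CPM in HP1_T1. The groups were apart, with a log2 change of 3.15 (SE 0.11, edgeR adjusted p 2.42e-41) and 2.85 to 3.26 over the alternatives run. It had 11.1 ± 0.776 CPM in HP1_T2, 3.30 ± 1.02 in C and 0.710 ± 0.643 in WT (SD, n = 4 each), the order of the group means at ranks 43 and 73. Uniquely placed reads made up 82.2% of its reads in the 8 libraries. Its level per length was 242 RPKM in HP8_T1 and 31.1 RPKM in HP1_T1.

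Nta#S45517902 (723 bases) had 1, 3, 0 and 2 reads in HP8_T1, against 14, 25, 41 and 28 in HP1_T1. The HP8_T1 libraries were at or near 0, with a fitted log2 change of −3.80 (SE 0.47, edgeR adjusted p 1.65e-10) and a pooled level 15.4-fold higher in HP1_T1 (95% exact interval 6.86 to 42.9, counting error alone). The selfed progeny HP1_T2 had 6 reads over 4 libraries, C had 0 and WT had 14. Every HP1_T1 library stood above every library of the other groups, its own progeny included. Its level per length was 0.846 RPKM in HP8_T1 and 15.0 RPKM in HP1_T1.

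Nta#S33578284 (891 bases), with the largest downward change among the 377 features that met the same conditions with 20 or more reads in both lines, had 10.45, 11.97, 12.2 and 10.6 CPM in HP8_T1, against 52.8, 51.1, 47.0 and 45.3 CPM in HP1_T1. The libraries of the lines lay far apart, with a log2 change of −2.09 (SE 0.13, edgeR adjusted p 1.16e-24). It had 34.9 ± 4.27 CPM in HP1_T2, 97.9 ± 6.72 in C and 32.6 ± 3.30 in WT (SD, n = 4 each), so HP8_T1 stood lowest of the 5 groups. Its level per length was 18.3 RPKM in HP8_T1 and 90.3 RPKM in HP1_T1. None of the 4 changed direction or lost its call in any alternative that could test it. They were chosen for large changes without overlap in these same libraries, so this is no further support.

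**Figure D4:**
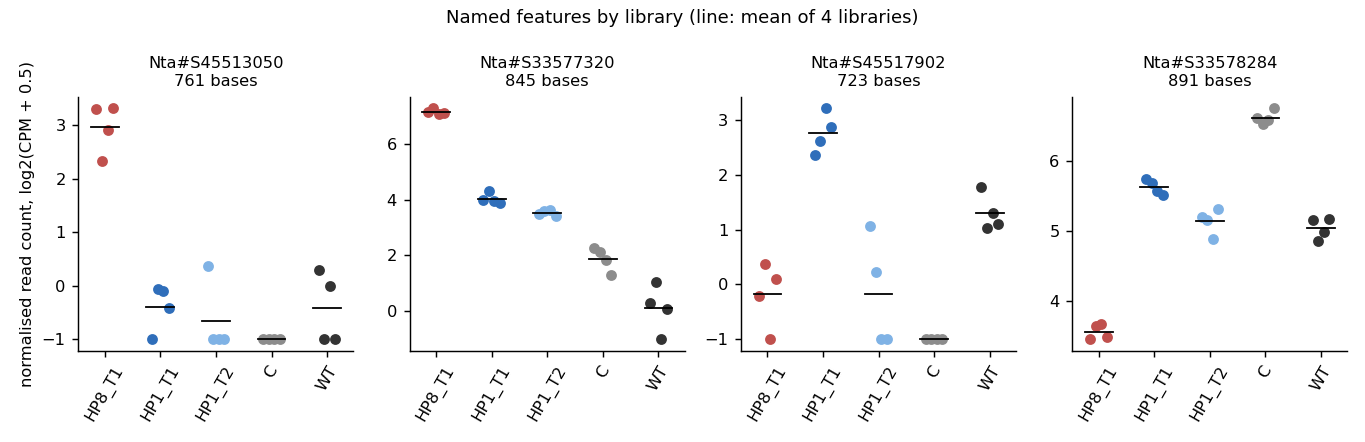
Each panel shows 1 named feature, with the groups on the x axis and the normalised read count as log2(CPM + 0.5) on the y axis, 1 point per library and a line at the mean of 4. Nta#S45513050 and Nta#S33577320 are highest in HP8_T1, Nta#S45517902 is highest in HP1_T1, and Nta#S33578284 is lowest in HP8_T1.

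Reads present in 1 line and absent from the other were confined to sparse features. At least 10 reads in each library of 1 line and 0 in all of the other were found for 0 features in favour of HP8_T1 and for 1 in favour of HP1_T1. That 1 feature, of 931 bases, had 0 reads in every HP8_T1 library and 15, 14, 29 and 18 in HP1_T1. It had 2 reads over the libraries of HP1_T2, 2 over those of C and 31 over those of WT, so HP8_T1 shared its low level with HP1_T2 and C. Its mean of 19 reads kept it just outside the rule for identifiers.

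With at least 5 reads in each library, 7 features were found in HP8_T1 alone of the 2 lines and 18 in HP1_T1 alone. Of the 7, those of 861 and 889 bases had 0 reads in HP1_T2, C and WT as well, with 38 and 35 reads in HP8_T1. Of the 18, 17 had reads in HP1_T2, but most had reads in C as well and several in WT, so this was not confined to the progeny of line 1. With at least 1 read in each library, 256 features were seen in HP8_T1 alone and 508 in HP1_T1 alone, with a median of 11 and 12 reads over 4 libraries. All these counts are out of the 19353 features with a read in the 8 libraries. At equal depth outside the top feature, more features were expected with a read in HP1_T1 (15478) than in HP8_T1 (14574). In a group with 0 reads, up to 3 reads over the group are allowed by counting error, so absence cannot be read from these counts.

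The share of calls differed between classes of feature length, in no single order with length. Of 6168 features from 500 to under 1000 bases, 1248 were higher and 1234 lower (40.2% called), and of 602 features from 1000 to under 2000 bases, 192 were higher and 136 lower (54.5%). Of the 204 features of at least 2000 bases, 44 were higher and 45 lower (43.6%), and of the 78 under 500 bases, 21 and 14 (44.9%). The median reads per library were 15.8 under 500 bases, 16 in the class of 6168 features, 31.2 in that of 602 and 45.9 from 2000 bases, so the class with the deepest counts was not the one called most often. The part of depth in these shares was not tested. The median length was 895 bases among higher, 884 among lower and 888 among all tested features.

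Median levels of the features that differed between the lines were also taken in the other groups. The higher and lower sets were chosen on HP8_T1 and HP1_T1, so the distance between those groups is set by that choice, while HP1_T2, C and WT were not compared to choose them. By the same choice, medians of these other groups are expected to fall between the lines under TMM, so that place is no result of its own. Over the 1505 features that were higher in HP8_T1, the median level as log2(CPM + 0.5) of the group mean was 3.06 in HP8_T1, 2.09 in HP1_T1, 2.54 in HP1_T2, 2.50 in C and 2.64 in WT. Over the 1429 that were lower it was 1.88 in HP8_T1, 2.90 in HP1_T1, 2.50 in HP1_T2, 2.55 in C and 2.54 in WT. Over all tested features the 5 medians lay between 2.32 and 2.36. HP1_T2, the selfed progeny of HP1_T1, C and WT lay between the lines in both sets under TMM, but with reads outside the top feature as the scale WT lay below both lines, at a mean library median of 2.03 in the higher set (HP8_T1 3.18, HP1_T1 2.48) and 1.93 in the lower set (HP8_T1 2.03, HP1_T1 3.31). WT was also lowest of these over all tested features on that scale, at 1.75 against 2.48 in HP8_T1 and 2.72 in HP1_T1. Relative to all tested features, WT lay between the lines in both sets. It was 0.28 in the higher set (HP8_T1 0.70, HP1_T1 −0.24) and 0.18 in the lower set (HP8_T1 −0.45, HP1_T1 0.59).

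**Figure D5:**
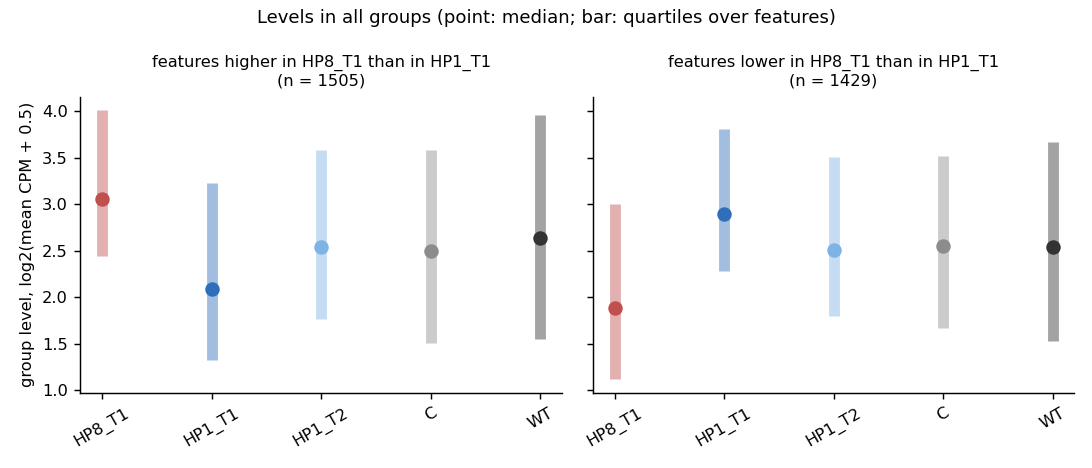
The panels show features higher (left, n = 1505) and lower (right, n = 1429) in HP8_T1 than in HP1_T1, with the level in each group as log2(mean CPM + 0.5) on the y axis. Points are medians and bars are quartiles over features, and HP1_T2, C and WT lie between the lines in both panels under TMM (2.50 to 2.64), while WT lies below both lines on the scale of reads outside the top feature, as it does there over all tested features.

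Feature by feature, HP1_T2 took many positions between and around the lines. Of the 1505 higher features, its mean lay beyond HP8_T1 in 281 (18.7%), between the lines in 832 (55.3%) and beyond HP1_T1 in 392 (26%). Of the 1429 lower features these were 275 (19.2%), 783 (54.8%) and 371 (26%). HP1_T2 was nearer on the log2 scale to its parent than to HP8_T1 in 782 of the higher (52%) and 809 of the lower features (56.6%), and with reads outside the top feature as the scale in 918 (61.0%) and 663 (46.4%). On that scale HP1_T2 lay between the lines in 627 (41.7%) and beyond HP1_T1 in 605 (40.2%) of the higher features, and in 989 (69.2%) and 160 (11.2%) of the lower ones. Under TMM, WT lay beyond HP8_T1 in 494 (32.8%) and beyond HP1_T1 in 548 (36.4%) of the higher features, and in 500 (35.0%) and 438 (30.7%) of the lower ones. With reads outside the top feature as the scale these were 243 (16.1%) and 1007 (66.9%) of the higher, and 56.9% and 8.12% of the lower features, so where WT lay depended on the scale. WT lay between the lines under TMM in 463 (30.8%) of the higher and 491 (34.4%) of the lower features. For C these were 579 (38.5%) and 630 (44.1%), and 428 (28.4%) and 778 (54.4%) with reads outside the top feature as the scale.

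As a share of reads, with the sets as called under TMM, the features that were higher in HP8_T1 took 42.8% ± 0.179 of the reads outside the 2 most abundant features in HP8_T1, 27.8% ± 0.170 in HP1_T1, 36.4% ± 0.224 in HP1_T2, 35.5% ± 0.128 in C and 46% ± 0.205 in WT (SD, n = 4 each). Those that were lower took 15.5% ± 0.140, 27.9% ± 0.176, 21.9% ± 0.118, 21.9% ± 0.0996 and 17.1% ± 0.186 in the same groups. By these sums, which abundant features dominate, HP8_T1 lay nearer to WT than HP1_T1 did, and HP1_T2 and C lay close together between the lines. As with the medians, the distance between the lines is set by the choice of the sets. A place between them is again no result of its own. Counted per feature, where WT lay depended on the scale. Under TMM, WT was nearer to HP8_T1 in 719 (47.8%) and to HP1_T1 in 786 (52.2%) of the higher features. Of the lower ones these were 727 (50.9%) and 702 (49.1%). With reads outside the top feature as the scale, they were 357 (23.7%) and 1148 (76.3%) of the higher features. Of the lower ones they were then 1140 (79.8%) and 289 (20.2%).

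Comparisons that share no library with the one between the lines were set beside it. HP1_T2 against WT was nonetheless part of the same fit, with the same filter, scaling and estimates of spread. A feature of low fitted spread is called more readily in both, and what this adds to the shares called was not tested. C against WT was fitted on its own 8 libraries. In HP1_T2 against WT, 395 of the 1505 higher features were called higher (26.2%) and 470 lower (31.2%), where 28.4% of all tested features were called higher and 24.2% lower. Of the 1429 lower features, 455 (31.8%) were higher and 376 (26.3%) lower. The median log2 change of HP1_T2 against WT was −0.028 over the higher and 0.12 over the lower features, beside 0.13 over all tested. In C against WT, 710 of the higher features could be tested, of which 136 were higher (19.2%) and 279 lower (39.3%), and 652 of the lower ones, of which 231 were higher (35.4%) and 152 lower (23.3%). The background in that comparison was 26.6% higher and 28.3% lower of 2782 features. The median log2 change of C against WT was −0.28 over the higher and 0.17 over the lower features, beside 0.037 over all those tested in both. Both comparisons use the same WT libraries, and both were fitted under TMM alone. Over all tested features the mean library medians of HP1_T2 and WT were 2.37 and 2.32 under TMM. With reads outside the top feature as the scale they were 2.46 and 1.75, so the counts of higher and lower calls against WT hold for TMM only.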

How the data were processed

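RNA of tobacco leaves was precipitated in lithium chloride, and its libraries were prepared for SOLiD sequencing from total RNA, per the labels' protocols. The sources used here do not give the aligner, its settings or the build. By their headers, the authors' deposited columns are total and unique gene reads (counts), feature length and RPKM. The deposited RPKM equalled total reads per kilobase and per 1e6 total gene reads (largest relative deviation 1.6e-15). Groups and replicate numbers come from the sample titles.

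Total gene reads of the 16 libraries of the hairpin table (HP8_T1, HP1_T1, HP1_T2, WT) were fitted together with edgeR 4.0.16 in R 4.3.3: filterByExpr with a minimum count of 10, TMM, the group as the single term, quasi-likelihood F tests and Benjamini-Hochberg adjustment over 7052 features at 0.05. C against WT was fitted on its own 8 libraries. CPM in the text are scaled by TMM over all 20 libraries. DESeq2 1.42.0 was an alternative test. Library-level measures went through exact permutation tests, two-sided (Python 3.11.15, scipy 1.17.1), adjusted over 6 measures. Features with a read at equal depth were computed by exact rarefaction. The scripts were tested on simulated data.

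Identifiers named are, in each direction, the called feature of largest fitted change whose libraries did not overlap between the lines and whose mean reached 20 reads in the line with more, and the one of largest change that also reached 20 in the line with fewer. Lists of genes by function or cell type could not be applied without names. The comparison, classes and rules were chosen with earlier results of these data known. The common biological coefficient of variation was 8.86% in the fit, and 9.33% and 8.17% within HP8_T1 and HP1_T1. Pairs of libraries within a line had chi-square values of 1.25 to 2.62 for each degree of freedom, above counting noise, so each was counted as 1 sample, although repeat libraries of 1 RNA could exceed it too.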

Additional observations from a re-analysis of the deposited data

Results flagged for a closer look

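A single value stood apart from its group by the ratio of its gap to the group's range, among 48 groups of 4 libraries examined. For Nta#S45513050, 1 HP1_T2 library had 2 reads and the other 3 had 0, a ratio of 1. Chance flags about 5% of groups, and with so few reads the value is within counting error of 0.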

How the results depend on the processing

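Leaving out 1 of the 8 libraries gave 1382 to 1521 higher and 1328 to 1413 lower features, 777 to 880 and 792 to 880 at least 2-fold, 136 to 183 and 145 to 198 at least 4-fold, and a difference of −200819 to 69363 in total gene reads and of −0.0069 to 0.041 percentage points in unique reads, both of which thus changed sign. It gave 0 features with at least 10 reads in HP8_T1 and none in HP1_T1, and 1 to 2 of the reverse, the 2 without HP8_T1 replicate 3. Against 1505 and 1429, DESeq2 called 1303 and 1116, unique reads 1483 and 1453, the 8 libraries alone 1386 and 1322, and all 20 libraries 1467 and 1454.

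Library totals gave 980 higher features and 5 calls at ranks 1 to 10. Totals outside the most abundant feature gave 872 and 2438, with 434 and 1316 at least 2-fold and 237 lower at least 4-fold. Without a filter these were 2560 and 2993, 1952 and 2343, 1011 and 1300, with 4939 calls beyond rank 1000, 221 under 500 bases and 4842 from 500 to under 1000 bases. A minimum count of 30 gave 652 and 646, 210 and 199, 36 and 22, with 650, 15 and 973 in those classes. The filters change how many features are tested (20197 and 2277). Features present in 1 line alone numbered 7 and 18 at a minimum of 5 reads, and 0 and 0 at 20. On the scale outside the most abundant feature, median library levels (log2 CPM) of the higher set were 3.18 for HP8_T1 (3.08 with TMM), 2.48 for HP1_T1 (2.11), 2.65 for HP1_T2 (2.56) and 2.03 for WT (2.62). Those of the lower set were 2.03 (1.93), 3.31 (2.92), 2.63 (2.53) and 1.93 (2.51) for the same groups.

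The labels do not say what a replicate number shares. Same-numbered libraries of the lines deviated together at a correlation of 0.0040 to 0.032 over tested features, below the 0.1 set for pairing. They were thus not treated as pairs, and 4 of 8 libraries correlated best with their own number (5 of 8 on edgeR's log2 CPM). Tested features had a median of 17.1 reads per library, and counting noise lowers such a correlation, so this rule could not exclude pairing. In abundant features, looked at after seeing the data, same-numbered libraries did deviate together. The correlations were 0.48 to 0.71 at ranks 1 to 100 (7 of 8 libraries best with their own number). From there to rank 1000 they were 0.082 to 0.17 (8 of 8), a hint of pairing from the data. The unique share fell in the order of replicates 1, 2, 4 and 3 in every group. Total gene reads fell in the order 2, 3, 4 and 1 in every group but HP1_T2. Replicate numbers thus went with something shared across groups, which the labels do not name. The replicate block gave 1537 higher and 1456 lower features, and exact paired permutation gave p of 0.125, the smallest that 4 pairs allow, for 5 of the 6 measures, with differences unchanged at 10.4, −5.34, −904, −1.73 and 0.019, and 0.5 for total reads (−49069). By number, the share of the top feature was lower in HP8_T1 in 4 of 4 pairs (−1.87 to −1.51 percentage points) and the unique share higher in 4 of 4 (0.012 to 0.032). Depth outside the top feature, 406165 to 647426 reads per library, limits what is seen of sparse features.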

Other observations

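Reads shared between near-identical sequences touched a minority of the differences between the lines. Fewer than 90% of reads were uniquely placed for 322 of the 2934 called features (11%) and for 654 of the 7052 tested (9.27%).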
